A study of Mus musculus with 6 samples.

Results

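The genes described here are 43 components of the endoplasmic reticulum (ER) secretory machinery and of the unfolded protein response, chosen by name and measured in CCR9+ plasmacytoid dendritic cells (pDCs) and in pDC-like precursors without CCR9. Probes were assigned to a gene when the platform symbol, or the current symbol of its Entrez identifier, was on the list. A named probe was found for 42 of the 43 genes, all but Dnajb11, and these genes had 78 of the 45281 probes on the array. The probes of 35 genes passed the filter on dim probes and were tested, among 9561 genes tested in all.

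Secreted and membrane proteins enter the ER through the Sec61 channel, lose their signal peptide, and are folded by chaperones and disulfide isomerases. Proteins that fail to fold are sent back to the cytosol for degradation. When unfolded protein builds up, the ER membrane sensors IRE1 (gene Ern1), PERK (Eif2ak3) and ATF6 start the unfolded protein response. IRE1 splices Xbp1 mRNA into a form that encodes an active transcription factor, PERK slows translation and favours that of Atf4, and ATF6 is cleaved to release a transcription factor. pDCs secrete large amounts of type I interferon after viral sensing, carry an extensive rough ER, and depend on Xbp1 in the mouse.

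Both groups were sorted by FACS from bone marrow of female C57BL/6 mice aged 7 weeks, with 3 arrays for CCR9+ pDC and 3 for CCR9- pDC-like common DC progenitors, called precursors below. No treatment or allele is named for either group. The series design calls the isolations independent, and the sources used here do not give the gates beyond CCR9 or the number of animals pooled. The comparison asks how these sorted populations differ in gene expression. Total RNA was hybridised to single-colour Illumina BeadChips, and levels below are background-corrected, quantile-normalised log2 signals of the brightest probe of a gene, unless raw signals are named. Differences are CCR9+ pDC minus precursor, and a gene is called where the adjusted p of limma's moderated test over 9561 genes is below 0.05.

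The median raw signal lay between 135.9 and 163.6 per array, and 15254 to 16905 probes were above background (detection p below 0.05). CCR9+ pDC replicate 3 stood apart: it had the fewest probes above background, and 247 genes lay at least 1 log2 unit below both other arrays of its group, against 2 to 24 genes for any other array. Of 10 pDC markers, 8 were tested, and each of these was above background on all 6 arrays. Irf7, Pacsin1 and Siglech were called higher in CCR9+ pDCs and Ly6d lower, while Bst2, Tcf4, Irf8 and Spib did not pass the test. Ccr9 itself was above background on no array (lowest detection p 0.0919), so its probe does not check the sort. Markers of other cells moved with the groups. The summed linear level of monocyte and macrophage markers was 31058 to 38663 on CCR9+ pDC arrays and 2670 to 3259 on precursor arrays, with 10 of 10 tested markers called higher. All 10 granulocyte markers were also called higher, with summed levels of 102213 to 116199 against 51287 to 60205, as were 6 of 6 basophil and mast cell markers (5115 to 6755 against 1802 to 2434). Fewer were called in the erythroid list (2 of 4, 30260 to 56292 against 24439 to 36340) and the T and NK cell list (2 of 3, 444 to 574 against 247 to 304). The erythroid sum was mostly Hba-a1, which was not called (adjusted p = 0.174 in limma). The part of these other cells in the results below was not tested.

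Of the 35 tested members, 7 were higher in CCR9+ pDCs and 0 were lower by this test. The 7 were Mzb1, Dnajb9, Xbp1, Edem2, Dnajc3, Sec61a1 and Creld2. They make up 20.0% of the members, beside 17.6% of all 9561 genes called higher and 18.2% called lower, so the share called higher lay near the background. At an unadjusted p below 0.05 in limma, 10 of 35 members and 4323 of 9561 genes passed, a smaller share of the members than of all genes. The median difference was 0.10 over the members and -0.02 over all genes. With median scaling in place of quantile normalisation these medians became -0.08 and -0.19, and the member median then changed sign. The 3 CCR9+ pDC arrays lay above all precursor arrays for 12 members (34.3%, beside 24.2% of all genes) and below all of them for 5 (14.3%, beside 26.7%). Mzb1 was the member with the greatest difference and the only called member past 2-fold. In bulk RNA, fewer cells of a type and less RNA per cell cannot be told apart.

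**Figure D1:**
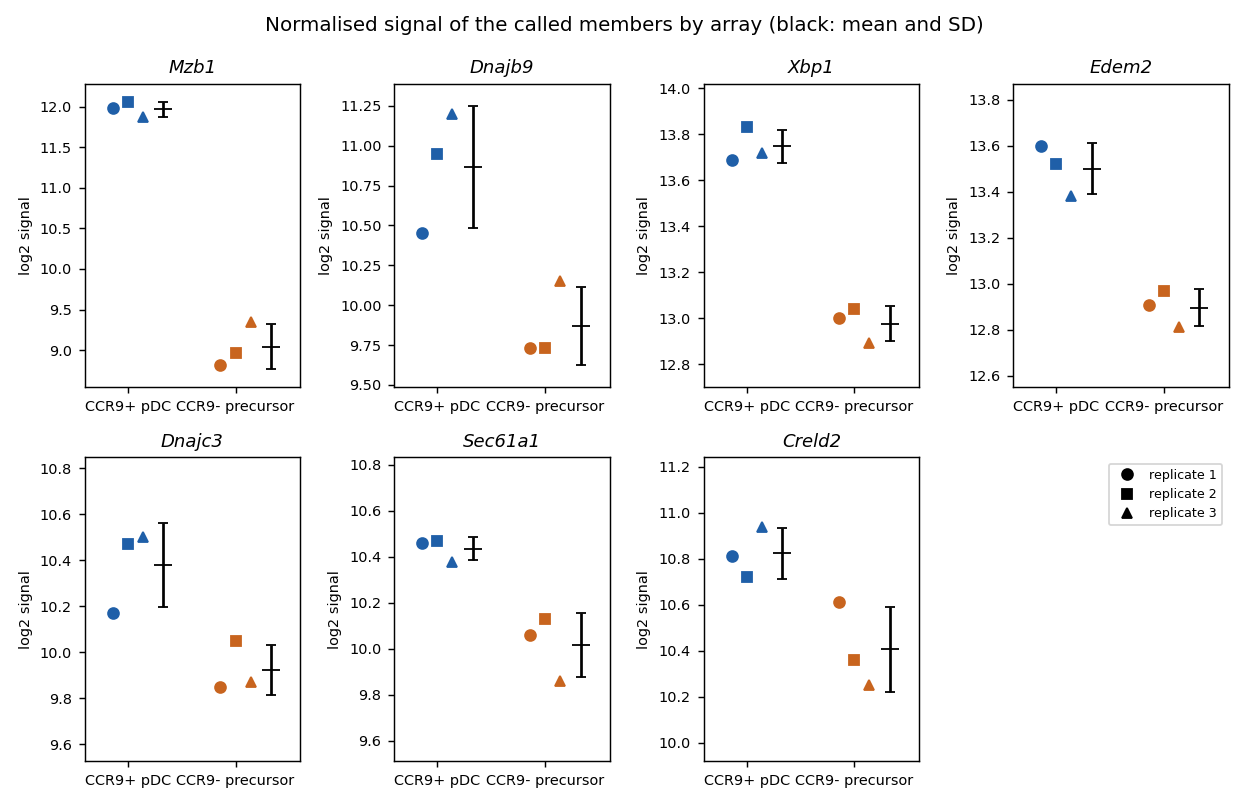
Normalised log2 signal of the 7 called members by array, with a panel per gene, CCR9+ pDC in blue and CCR9- precursors in orange, a marker shape per replicate number, and black bars for mean and SD (n = 3). In every panel the 3 CCR9+ pDC arrays lie above the 3 precursor arrays, by a mean of 2.92 log2 units for Mzb1 and 0.42 for Creld2.

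Among the 6 sensors and transcription factors, Xbp1 was called higher and the other 5 did not pass the test. Xbp1, the transcription factor that IRE1 activates by splicing, had levels of 13.69, 13.83 and 13.72 on the CCR9+ pDC arrays and 13.00, 13.04 and 12.89 on the precursor arrays. The groups did not overlap, and the arrays of each lay within 0.16 log2 units of one another. The difference was 0.77 (95% interval 0.55 to 0.99, 1.70-fold, adjusted p = 0.000991 in limma). Raw signals were 12500, 14500 and 12250 against 9299, 8803 and 8168. The array gives no separate value for spliced and unspliced Xbp1 mRNA here. Under the 16 alternatives the Xbp1 difference stayed between 0.61 and 0.96 and remained called.

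The stress sensors themselves did not pass the test at their brightest probes. Ern1 read 10.12, 9.86 and 9.94 in CCR9+ pDCs and 9.83, 9.75 and 9.81 in precursors. These groups did not overlap, but the difference of 0.18 (interval -0.07 to 0.42, adjusted p = 0.230 in limma) did not pass the test. Its dimmer probes pointed the other way, as described with the probes below. Eif2ak3 read 6.41, 6.83 and 6.74 against 6.34, 5.95 and 6.91, a difference of 0.25 (interval -0.35 to 0.86) with overlapping groups. Atf6 was near the limit of detection, above background on 1 CCR9+ pDC array and 2 precursor arrays, and differed by -0.15 (interval -0.45 to 0.16). Its levels of 5.30, 5.49 and 5.49 overlapped the 5.58, 5.38 and 5.75 of the precursors.

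Downstream of PERK, Atf4 and Ddit3 overlapped between the groups. Atf4, the factor whose translation PERK favours, read 11.09, 11.28 and 11.66 in CCR9+ pDCs and 10.96, 11.09 and 11.54 in precursors. The difference of 0.15 (interval -0.34 to 0.64, adjusted p = 0.609 in limma) was smaller than the spread inside either group. Ddit3, which encodes the stress factor CHOP, read 7.79, 7.52 and 7.82 against 7.12, 7.33 and 7.63. Its difference was 0.35 (interval -0.03 to 0.73, adjusted p = 0.136).

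Of the 7 tested Hsp70 and Hsp90 chaperones and cofactors, 4 were called higher, with a median difference of 0.42. Over all genes, 17.6% were called higher and the median was -0.02. The calls of Dnajc3 and Creld2 depended on single arrays, as described below, and the list was not tested as a set. Mzb1 (also pERp1), a small ER protein of B cells and pDCs that assists the Hsp90 chaperone Hsp90b1, read 11.98, 12.05 and 11.87 in CCR9+ pDCs and 8.82, 8.96 and 9.35 in precursors. The gap between the groups was wider than 2 log2 units on every pair of arrays. The difference was 2.92 (interval 2.56 to 3.29, 7.59-fold, adjusted p = 2.73e-05 in limma), and it lay between 2.66 and 3.13 under all 16 alternatives, called in each. Raw signals were 3830, 4237 and 3252 against 645.6, 645.4 and 842.9.

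Mzb1 is also a gene of B cells and plasma cells, so their markers are given beside it. Of 9 plasma cell markers, Jchain, Prdm1, Tnfrsf17 and Ighg1 were above background on no array, and 3 were tested. Tnfrsf13b, a receptor for B cell survival factors, was higher by 1.02 (adjusted p = 0.000371 in limma). Sdc1 (CD138), a surface marker of plasma cells, fell by 1.00 (adjusted p = 0.00246), with a signal over background on 1 CCR9+ pDC array. Irf4 did not pass (0.11). The summed level of the list was 5230 to 5809 on CCR9+ pDC arrays and 2761 to 3098 on precursor arrays. That sum was mostly Tnfrsf13b, which read 12.36, 12.28 and 12.39 against 11.23, 11.46 and 11.30 in log2 units, so it does not stand for the list. Of 6 tested B cell markers, Cd79b (1.02) and Blnk (0.65) were called higher, with summed levels of 2622 to 3302 against 1604 to 1772. Pax5 was above background on 1 precursor array and on no CCR9+ pDC array. The part of such cells in the Mzb1 difference was not tested.

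Dnajb9 and Dnajc3, the tested DnaJ proteins of this chaperone group, were higher in CCR9+ pDCs. Dnajb9 (ERdj4), a BiP cofactor that also restrains IRE1, read 10.45, 10.95 and 11.20 in CCR9+ pDCs and 9.73, 9.73 and 10.15 in precursors. The lowest CCR9+ pDC array lay above the highest precursor array, and replicate 3 was highest in both groups. The difference was 1.00 (interval 0.47 to 1.52, 1.99-fold, adjusted p = 0.0128 in limma). Without precursor replicate 1 or 2 the adjusted p rose to 0.0502 and 0.0512, with differences of 0.92 and 0.93.

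Dnajc3 (p58IPK), another BiP cofactor, read 10.17, 10.47 and 10.50 against 9.85, 10.05 and 9.87. Its groups were separate, with a difference of 0.46 (interval 0.16 to 0.76, 1.37-fold, adjusted p = 0.0293 in limma). This call depended on single arrays: the adjusted p was 0.0996 without precursor replicate 1, 0.0920 without precursor replicate 3, 0.0908 without CCR9+ pDC replicate 2 and 0.0574 without CCR9+ pDC replicate 3. With median scaling the difference was 0.20 (adjusted p = 0.339).

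Creld2, an ER protein with EGF-like domains that is induced by ER stress, read 10.81, 10.72 and 10.94 against 10.61, 10.36 and 10.25. The nearest arrays of its groups were 0.11 log2 units apart. The difference of 0.42 (interval 0.12 to 0.72, 1.34-fold, adjusted p = 0.0384 in limma) was called with all 6 arrays. Leaving out any array other than precursor replicate 1 ended the call, with adjusted p from 0.0611 to 0.119. With median scaling the difference was 0.16 (adjusted p = 0.500). The adjusted p was 0.0627 with no filter on dim probes and 0.158 without both arrays numbered 3.

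The general chaperones Hspa5 and Hsp90b1 did not pass the test. Hspa5 (BiP), the main Hsp70 of the ER and the classical target of this response, read 6.60, 6.62 and 6.80 in CCR9+ pDCs and 6.37, 6.17 and 6.72 in precursors. The groups overlapped through precursor replicate 3, and the difference was 0.26 (interval -0.12 to 0.63, adjusted p = 0.253 in limma). Its probe was dim, with raw signals of 201.6 to 247.6. Hsp90b1 (Grp94), which folds Toll-like receptors and integrins, read 13.47, 13.42 and 13.51 against 13.37, 13.45 and 13.52. That difference was 0.02 (interval -0.19 to 0.24), so a change beyond 0.24 log2 units in either direction lay outside the interval.

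Sdf2l1, a partner of the BiP and DnaJ chaperones, read 8.50, 8.49 and 6.46 in CCR9+ pDCs and 9.04, 9.19 and 8.80 in precursors. All CCR9+ pDC arrays lay below all precursor arrays, with replicate 3 a further 2 log2 units down. The difference of -1.20 (interval -2.49 to 0.09, adjusted p = 0.134 in limma) did not pass. Without CCR9+ pDC replicate 3 it was -0.52 and passed (adjusted p = 0.0268), and without both arrays numbered 3 it was -0.63 (adjusted p = 0.0140). Hyou1 (Grp170), a nucleotide exchange factor of BiP, was above background on 2 precursor arrays and no CCR9+ pDC array. Manf, a secreted ER stress protein, was above background on 1 precursor array. Both were left untested.

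The 250 bases before the start of 3 chaperone genes are shown because they hold the ER stress response element, the sequence through which ATF6 and XBP1 are known to act together with NF-Y. The element searched, on both strands, was CCAAT and CCACG with a gap of 9 bases between them, and capitals mark it, in reverse complement where it begins with CGTGG. Sequences are from RefSeq, assembly GRCm38.p6, written 5′ to 3′ on the strand of the gene, which is the plus strand for Creld2 (chr15:88819396-88819645), Dnajc3 (chr14:118937682-118937931) and Hspa5 (chr2:34771840-34772089).
Creld2: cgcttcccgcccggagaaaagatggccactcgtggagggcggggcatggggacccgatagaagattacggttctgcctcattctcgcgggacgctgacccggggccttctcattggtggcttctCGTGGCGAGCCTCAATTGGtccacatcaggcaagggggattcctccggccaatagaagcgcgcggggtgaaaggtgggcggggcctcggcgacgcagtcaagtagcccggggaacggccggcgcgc
Dnajc3: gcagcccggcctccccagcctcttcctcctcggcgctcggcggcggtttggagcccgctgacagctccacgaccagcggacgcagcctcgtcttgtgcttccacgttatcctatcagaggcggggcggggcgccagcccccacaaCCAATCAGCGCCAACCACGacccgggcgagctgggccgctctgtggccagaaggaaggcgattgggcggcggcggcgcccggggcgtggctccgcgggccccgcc
Hspa5: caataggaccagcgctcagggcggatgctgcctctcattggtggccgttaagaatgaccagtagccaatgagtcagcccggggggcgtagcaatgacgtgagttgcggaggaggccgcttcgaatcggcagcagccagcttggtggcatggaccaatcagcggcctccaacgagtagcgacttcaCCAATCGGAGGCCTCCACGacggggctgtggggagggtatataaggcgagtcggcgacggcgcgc

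The element began 126 bases before the start in Creld2, 105 bases in Dnajc3 and 65 bases in Hspa5. It was found in 39 of 32851 promoters (0.119%), in windows of 250 bases before to 50 after the start. Of the 35 members with a promoter in the table, 8 held it (22.9%): Calr, Canx, Creld2, Derl3, Dnajc3, Hsp90b1, Hspa5 and Pdia6. The element was first defined on human promoters of the Hspa5, Hsp90b1 and Calr genes, so their matches are not independent of the search. Members were chosen by name for this response and its machinery, so their shares for this element and the next do not test enrichment. The sites of the other tested members follow with their flanking bases, as does that of Herpud1, which held the related element ATTGG and CCACG with a gap of 1 base, found in 12 promoters (0.0365%) and in 2 members (the other is Dnajb11).
Calr: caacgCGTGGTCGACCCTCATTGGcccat
Hsp90b1 (107 bases before the start): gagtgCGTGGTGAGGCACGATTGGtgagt
Hsp90b1 (212 bases before the start): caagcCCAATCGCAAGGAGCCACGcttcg
Pdia6: agagaCCAATGAAAGGCGGCCACGgcgtg
Herpud1: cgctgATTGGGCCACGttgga

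Calls were mixed among genes with these elements. Of the 10 members with either element, 7 were tested, and Creld2 and Dnajc3 were called higher. Their median difference was 0.26, with a range of -0.30 to 0.46. The 25 members with a promoter and neither element had 23 tested genes, of which 3 were called higher, with a median of 0.10. The short element TGACGTGG, a binding site of XBP1, was in 222 promoters (0.676%) and in 0 members. The element TGATGNAA, bound by ATF4 with its partners, was in 1304 promoters (3.97%) and among members in Herpud1. Dnajb9, Xbp1 and Edem2, all called higher, held none of these 4 sequences in this window, and Mzb1 and Sec61a1 had no promoter in the table.

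No member among the lectin chaperones and disulfide isomerases was called at its brightest probe. Calr, which holds glycoproteins until they fold, read 8.56, 8.89 and 8.0 in CCR9+ pDCs and 8.94, 8.76 and 8.66 in precursors. The groups overlapped, with a difference of -0.30 (interval -0.84 to 0.24, adjusted p = 0.351 in limma). Canx, its membrane-bound relative, was above background on no array (lowest detection p 0.138), and nothing can be said of it here.

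At their brightest probes all 4 disulfide isomerases had negative differences, from -1.24 to -0.09, and none passed the test. Pdia4 (ERp72) read 10.54, 10.52 and 7.53 in CCR9+ pDCs and 10.84, 10.79 and 10.69 in precursors. Raw signals were 1507, 1549 and 283.1 against 2209, 1978 and 1907, so replicate 3 was the low array before any normalisation. The difference of -1.24 (interval -3.11 to 0.63, adjusted p = 0.268 in limma) was set mostly by that array. P4hb, the founding disulfide isomerase, read 13.17, 13.26 and 13.36 against 13.36, 13.40 and 13.32 and differed by -0.09 (interval -0.32 to 0.13). In the authors' processed values the P4hb difference was 0.08. Pdia3 (ERp57), which works with the lectin chaperones and in loading MHC class I, read 12.52, 12.67 and 11.96 against 12.68, 12.33 and 12.63. It differed by -0.17 (interval -0.66 to 0.33), and by 0.05 without CCR9+ pDC replicate 3. Pdia6 differed by -0.16 (interval -0.44 to 0.12) at its brightest probe, while a second probe was called higher (0.63), as described with the probes below.

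Targeting and translocation had 10 tested members, of which Sec61a1 was called higher. Sec61a1, the pore of the translocation channel, read 10.46, 10.47 and 10.38 in CCR9+ pDCs and 10.06, 10.13 and 9.86 in precursors. The groups were 0.25 log2 units apart at their nearest arrays. The difference was 0.42 (interval 0.17 to 0.67, 1.34-fold, adjusted p = 0.0202 in limma). It was not called without precursor replicate 1 (0.0565 as adjusted p), precursor replicate 3 (0.0633), CCR9+ pDC replicate 1 (0.0531) or CCR9+ pDC replicate 2 (0.0649), nor with the mean of its probes (0.0729). With median scaling the difference was 0.16 (adjusted p = 0.535).

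The other channel subunits did not pass the test. Sec61b read 6.72, 6.84 and 6.14 against 6.47, 6.36 and 6.43, a difference of 0.15 (interval -0.31 to 0.60). Its replicate 3 was the lowest of all 6 arrays, and without that array the difference was 0.36 (adjusted p = 0.0294 in limma). Sec61g differed by 0.09 (interval -0.18 to 0.36). Sec63, a DnaJ protein of the channel, read 9.77, 10.08 and 10.32 against 9.71, 9.86 and 9.80 and differed by 0.27 (interval -0.10 to 0.63). Sec62 was above background on no array (lowest detection p 0.171).

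The translocon-associated protein complex, which assists the entry of some signal peptides, had members on both sides of 0. Ssr1 read 9.23, 9.44 and 9.48 in CCR9+ pDCs and 9.75, 9.89 and 9.55 in precursors, a difference of -0.35 (interval -0.65 to -0.05, adjusted p = 0.0738 in limma). Ssr3 read 12.50, 12.68 and 12.63 against 12.85, 12.83 and 12.76, a difference of -0.21 (interval -0.44 to 0.01). For both genes all CCR9+ pDC arrays lay below all precursor arrays, and neither passed the test. Ssr3 passed with the intensity trend alone (adjusted p = 0.0359). Ssr1 passed without background correction (adjusted p = 0.0379), with median scaling (0.0213), with the intensity trend (0.0317) and without both arrays numbered 3 (0.0450). Ssr2 differed by -0.20 with overlapping groups, and Ssr4 by 0.10 with separate groups (13.14, 13.15 and 13.17 against 13.03, 13.08 and 13.03). In the authors' processed values Ssr4 differed by 0.27 and passed (adjusted p = 0.0218).

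In the signal recognition particle, which brings ribosomes to the ER, Srp14 read 10.43, 10.54 and 10.48 against 10.28, 10.15 and 10.39. The groups were separate, and the difference of 0.21 (interval -0.03 to 0.45, adjusted p = 0.152 in limma) did not pass. In the authors' processed values it was 0.24 and passed (adjusted p = 0.0421). Its partner Srp9 differed by 0.09 (interval -0.14 to 0.31). Signal peptidase, which removes the signal peptide, had 2 tested subunits. Spcs1 differed by -0.14 (interval -0.37 to 0.08) and Spcs3 by -0.10 (interval -0.48 to 0.29), while Spcs2 was above background on no array (lowest detection p 0.206).

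**Figure D2:**
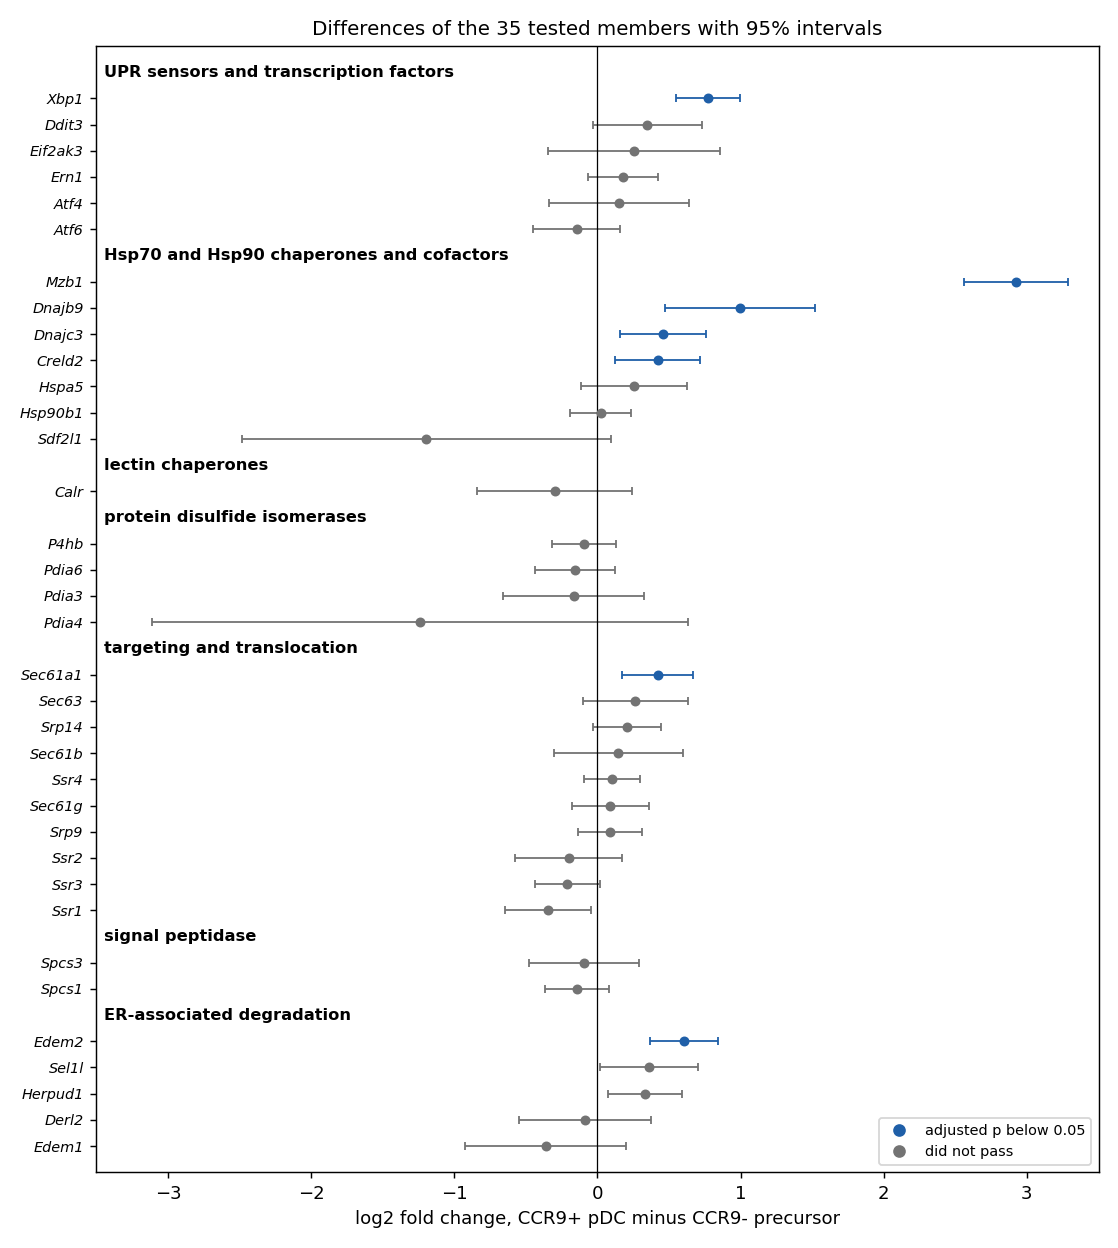
Differences of the 35 tested members in log2 units, CCR9+ pDC minus CCR9- precursor, grouped by role, with 95% intervals as bars and the called genes in blue. The 7 blue points all lie to the right of 0, and the widest intervals belong to Pdia4 (-3.11 to 0.63) and Sdf2l1 (-2.49 to 0.09).

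Of 5 tested members of ER-associated degradation, Edem2 was called higher. Edem2, which starts the mannose trimming that marks glycoproteins for degradation, read 13.60, 13.52 and 13.38 in CCR9+ pDCs and 12.91, 12.97 and 12.81 in precursors. The groups were 0.41 log2 units apart at their nearest arrays. The difference was 0.60 (interval 0.36 to 0.84, 1.52-fold, adjusted p = 0.00391 in limma). Of the 16 alternatives, median scaling was the only one that ended the call (0.44, adjusted p = 0.0935).

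Herpud1, an ER membrane protein of the degradation complex that is induced by stress, read 13.87, 14.07 and 14.11 against 13.58, 13.74 and 13.74. Its groups did not overlap, and the difference of 0.33 (interval 0.07 to 0.59, adjusted p = 0.0521 in limma) fell just short of the threshold. It passed under 8 of the 16 alternatives, with adjusted p from 0.00526 in the authors' processed values to 0.0429. Sel1l, the adaptor of the same complex, read 9.18, 9.51 and 9.69 against 9.05, 9.16 and 9.10. Its groups were separate by 0.02 log2 units, and the difference was 0.36 (interval 0.01 to 0.70, adjusted p = 0.0991). It passed under 3 alternatives: without CCR9+ pDC replicate 1 (0.50, adjusted p = 0.0212), in the authors' processed values (0.32, adjusted p = 0.0402) and with the intensity trend (adjusted p = 0.0473).

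Edem1, a relative of Edem2, was above background on 2 CCR9+ pDC arrays and 3 precursor arrays and differed by -0.36 (interval -0.93 to 0.20). Its levels of 5.94, 6.37 and 5.55 overlapped the 6.20, 6.11 and 6.64 of the precursors. Derl2, a channel protein of the degradation complex, differed by -0.08 (interval -0.55 to 0.38), and by 0.13 without CCR9+ pDC replicate 3. The related Derl1 and Derl3 were above background on no array (lowest detection p 0.384 and 0.392).

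Where a member had several probes, most agreed in sign. Of the 78 member probes, 56 were tested, 51 were above background on all arrays and 18 on none. In a fit of all 14282 named probes, 12 member probes were called, 11 higher and 1 lower. The share called over all probes is not given here, so these counts have no background of their own. Over all genes, 17.6% were called higher and 18.2% lower. All 4 Edem2 probes were higher, by 0.48 to 0.60, and 2 of them were called. The brightest had raw signals of 7734 to 11940, and the others were far dimmer, at 181.2 to 466.3. A dimmer Edem2 probe read 8.37, 8.47 and 7.37 against 7.56, 7.69 and 7.52, so its replicate 3 lay below all 3 precursor arrays while the brightest probe stayed 0.41 above them. Both Dnajb9 probes were called (1.00 and 0.90), and so was the dimmer Herpud1 probe (0.39, adjusted p = 0.0319 over all probes).

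Probes of 4 genes differed in sign, namely Pdia6, Derl2, Atf4 and Ern1. Pdia6 had a second probe reading 7.04, 7.13 and 7.33 in CCR9+ pDCs and 6.79, 6.38 and 6.45 in precursors. That probe was called higher (0.63, adjusted p = 0.0187 over all probes), while the brightest was at -0.16. Ern1 had dimmer probes at -0.62 (adjusted p = 0.0386, above background on 4 arrays) and -0.71 (adjusted p = 0.0537, above background on 5), against 0.18 at the brightest. Atf4 had a second probe at -0.23 that read 8.95, 9.40 and 8.90 against 9.04, 9.28 and 9.62. On CCR9+ pDC replicate 3 that probe was the lowest of its group, while the brightest Atf4 probe was the highest there. Which transcripts these probes match was not tested, and the direction of Pdia6 and Ern1 depends on the probe.

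**Figure D3:**
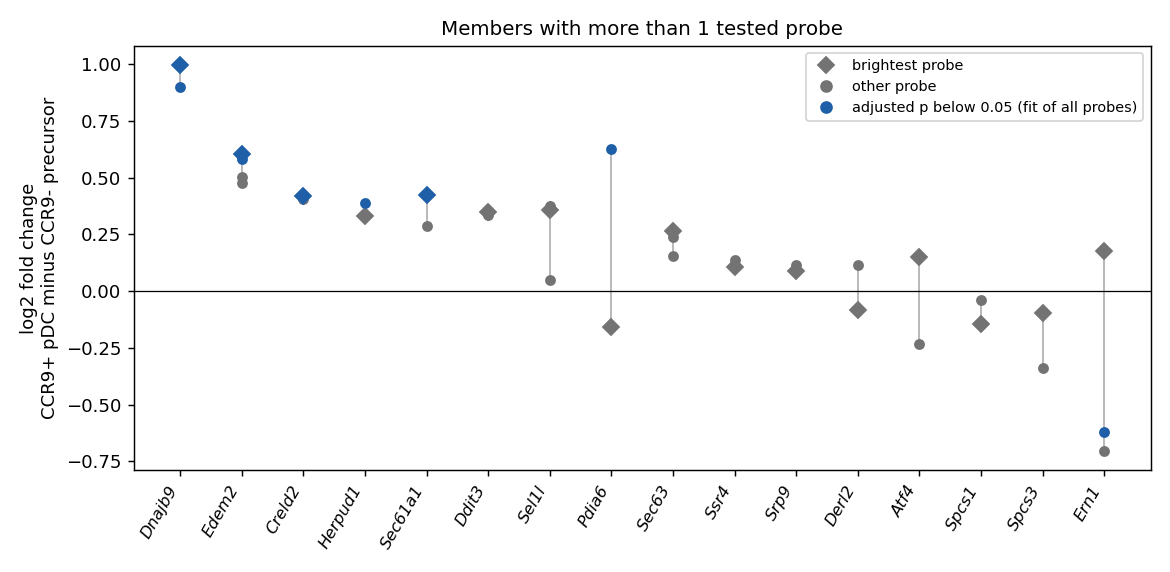
Differences of every tested probe in the 16 members with more than 1, in log2 units, CCR9+ pDC minus CCR9- precursor. Diamonds mark the brightest probe of a gene, and blue marks an adjusted p below 0.05 in the fit of all probes; Pdia6, Derl2, Atf4 and Ern1 have points on both sides of 0.

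The members varied between isolations in ways that the group means hide. On CCR9+ pDC replicate 3, Pdia4 and Sdf2l1 lay at least 1 log2 unit below both other arrays of their group, which is 5.71% of the members, beside 2.58% of all genes. They were 3.00 and 2.03 below the mean of replicates 1 and 2, and in precursors replicate 3 was 0.13 and 0.32 below. Calr (0.72 below), Sec61b (0.64), Pdia3 (0.64), Derl2 (0.63), Edem1 (0.60) and Ssr2 (0.51) were also low on that array. It was not low for all members: 17 of 35 were at their highest there and 12 at their lowest, beside 46.4% and 33.3% of all genes.

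A pair of stress-response genes differed between isolations in the same order in both groups. Atf3, a stress-induced factor downstream of Atf4, read 6.72, 9.0 and 10 in CCR9+ pDCs and 5.04, 6.19 and 8.25 in precursors. Ppp1r15a (GADD34), which reverses the translation block set by PERK, read 9.63, 10.85 and 11.73 against 8.44, 9.67 and 10.80. Neither is a member, and they were named after their values were seen. In both groups replicate 1 was the lowest and replicate 3 the highest, over ranges of 3.27 and 3.21 for Atf3 and 2.11 and 2.35 for Ppp1r15a. Their group differences of 2.08 and 1.1 did not pass in the main fit (adjusted p = 0.174 and 0.281 in limma). With the replicate number as a block, both had an adjusted p below 0.05 (0.00582 and 0.00252 in limma). The block removes the shared order over replicates, which was seen before the pair was named. These block values therefore do not test the group difference of the pair.

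Atf4 was 0.47 and 0.51 higher on replicate 3 than the mean of replicates 1 and 2, in CCR9+ pDCs and precursors respectively. Dnajb9 was 0.50 and 0.42 higher. Being highest on replicate 3 in both groups was shared by 6 of 35 members (17.1%), beside 17.9% of all genes.

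**Figure D4:**
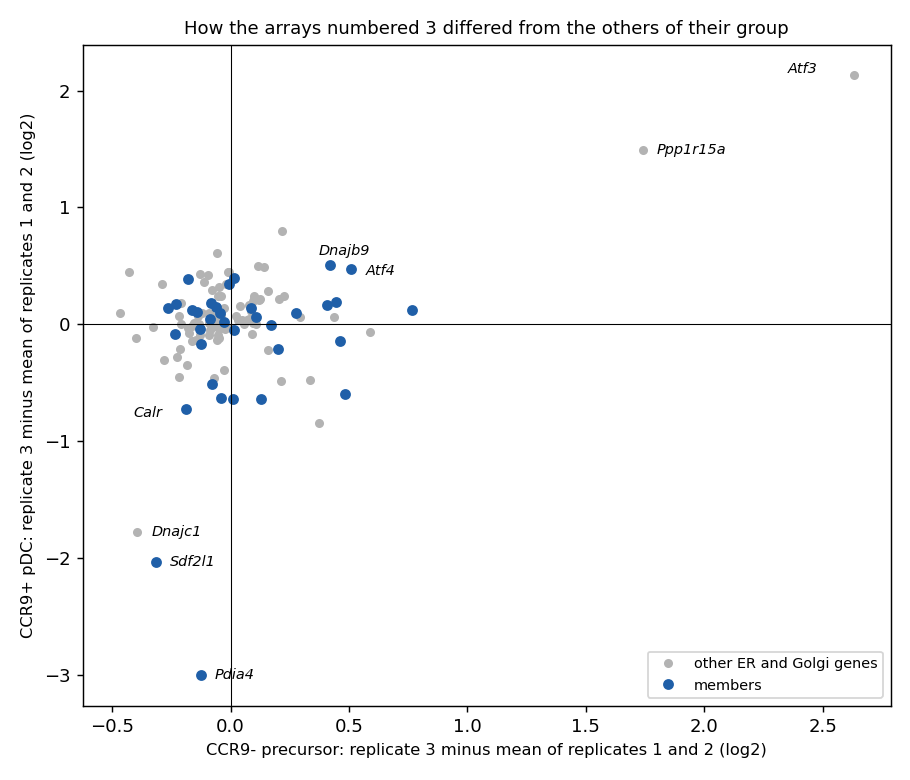
How far replicate 3 lay from the mean of replicates 1 and 2, in log2 units, for precursors (horizontal) and CCR9+ pDC (vertical), with members in blue and the other ER and Golgi genes in grey. Atf3 and Ppp1r15a lie at the upper right, high on replicate 3 of both groups, and Pdia4 and Sdf2l1 lie at the bottom, low on CCR9+ pDC replicate 3.

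The wider pathway was read from 111 other ER and Golgi genes in 6 lists, of which 90 were tested. Of these, 11 were higher in CCR9+ pDCs (12.2%), 9 were lower (10%) and 70 did not pass, with a median difference of 0.05. Both shares lay below the shares of all genes given above. The lists differed in how many genes were called, and that difference was not tested.

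Other genes of unfolded protein response signalling had the most calls, with 6 of 13 higher, 1 lower and a median of 0.78. Over all genes, 17.6% were higher and 18.2% lower, with a median of -0.02. The list was chosen with earlier results of these data known, so these counts do not test the pathway. Wfs1, an ER membrane protein induced in stress, read 9.71, 9.81 and 10.26 in CCR9+ pDCs and 8.36, 8.48 and 8.54 in precursors, a difference of 1.46 (interval 1.08 to 1.85, 2.76-fold, adjusted p = 0.000611 in limma). Bhlha15 (Mist1), a transcription factor of secretory cells and an Xbp1 target, read 9.50, 9.63 and 9.45 against 8.53, 8.69 and 8.21, a difference of 1.05 (interval 0.71 to 1.39, 2.07-fold, adjusted p = 0.00162). For Wfs1 and Bhlha15 the groups were far apart relative to their spread.

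Asns, asparagine synthetase and an Atf4 target, read 8.01, 7.66 and 7.76 against 6.33, 6.62 and 7.07. Its difference was 1.14 (interval 0.65 to 1.62, adjusted p = 0.00538 in limma), and 0.61 without background correction. Creb3l2, Creb3 and Nfe2l1, membrane-bound transcription factors, were also called higher (1.02, 0.78 and 0.38), and are named outside the naming rule to complete the count. Traf2, an adaptor that binds activated IRE1, fell by 1.00 (adjusted p = 0.00149). Its probe exceeded background on 1 CCR9+ pDC array, so its difference rests partly on signals not above background. Without background correction it fell by 0.34.

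Among 19 other folding enzymes, 1 was higher and 4 were lower. Txndc5, a disulfide isomerase abundant in plasma cells, read 12.83, 12.63 and 12.64 in CCR9+ pDCs and 11.68, 11.67 and 11.55 in precursors. It differed by 1.07 (interval 0.82 to 1.31, 2.09-fold, adjusted p = 0.000319 in limma), with no overlap. Prdx4, the peroxiredoxin of the ER, read 10.87, 10.78 and 10.81 against 12.56, 12.55 and 12.39. It was lower by a difference of -1.68 (interval -1.90 to -1.46, 3.20-fold, adjusted p = 3.31e-05), the largest fall among the tested genes of these lists. Erp29, a folding factor of the disulfide isomerase family, fell by 0.73 and Dnajc10 (ERdj5), a disulfide reductase, by 0.65 (adjusted p = 0.00173 and 0.0024). Fkbp2, a prolyl isomerase named outside the rule as the fourth, fell by 0.55.

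The remaining lists had few calls. Mcfd2, which with a lectin carries cargo from the ER to the Golgi, was higher by 1.03 (2.04-fold, adjusted p = 0.000402 in limma). The value was 0.63 with the mean of its probes. Sec24d, a coat protein of ER vesicles, fell by 0.49 (adjusted p = 0.0201), and these were the only called genes of 22 tested in ER to Golgi transport. Of 13 degradation genes, Aup1 (0.35) and Syvn1 (0.30), the ubiquitin ligase that works with Sel1l, were called higher. Of 15 targeting genes, Emc1 (-0.48) and Emc3 (-0.28), subunits of a membrane protein insertase, were lower. Of 8 oligosaccharyltransferase genes, which attach sugars to new proteins, the catalytic Stt3a was higher (0.43) and Ostc lower (-0.28).

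Calls of Wfs1, Asns, Bhlha15, Traf2, Txndc5, Prdx4, Erp29, Dnajc10 and Mcfd2 held under all 16 alternatives. Each of Aup1, Syvn1, Emc1, Emc3, Stt3a, Ostc and Sec24d lost its call in at least 1 of the fits that left out 1 array. Syvn1, Emc3 and Ostc lost it whichever array was left out, and Stt3a in all but 1 of these fits. Emc3 and Ostc also lost it with cyclic loess, with the mean of probes and with no filter on dim probes. Adjusted p then ranged from 0.0533 to 0.0762 for Aup1, 0.0589 to 0.147 for Syvn1, 0.0919 to 0.0953 for Emc1, 0.0520 to 0.141 for Emc3, 0.0513 to 0.119 for Stt3a, 0.0624 to 0.161 for Ostc and 0.0580 to 0.0681 for Sec24d. With median scaling Aup1 was at 0.12, Syvn1 at 0.10 and Stt3a at 0.18, and in the authors' processed values Emc1 was at -0.14, Emc3 at -0.12 and Ostc at -0.13, with no call for any of them.

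**Figure D5:**
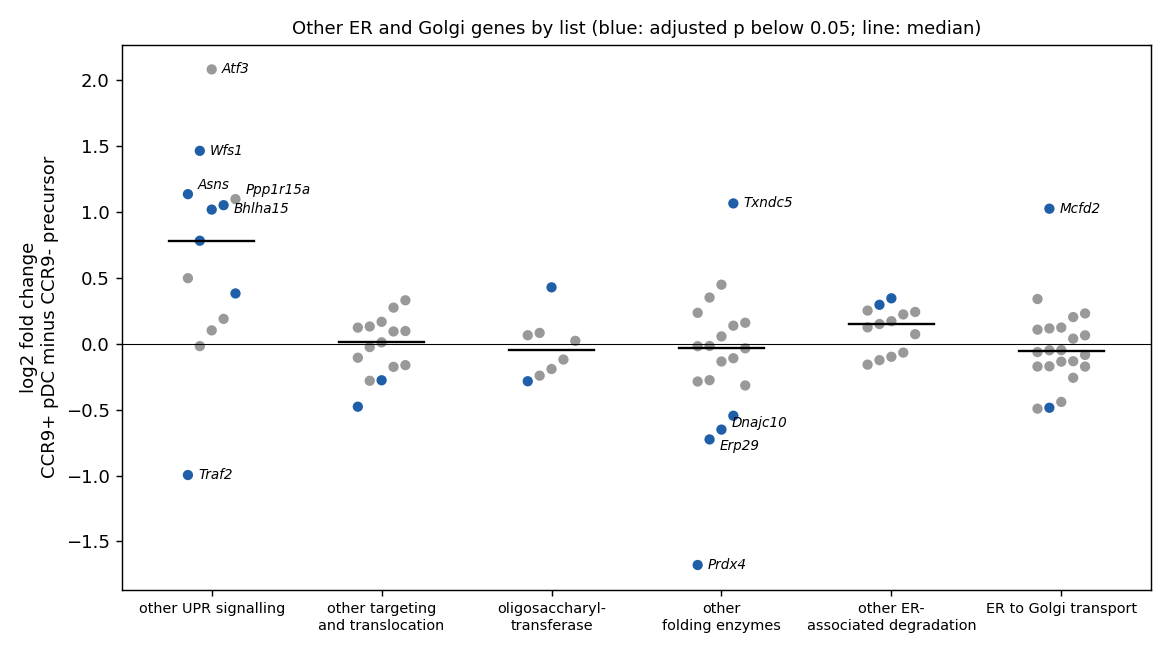
Differences of the 90 tested genes of the 6 other ER and Golgi lists, in log2 units, CCR9+ pDC minus CCR9- precursor, with called genes in blue and a line at the median of each list. The signalling list has the highest median (0.78), and Prdx4 (-1.68) is the lowest point.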

How the data were processed

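The authors deposited linear intensities per probe, not normalised per the file headers, each with a detection p-value, and processed intensities whose normalisation the sources used here do not state. BeadStudio and lumi are named in the submitters' processing notes. Per the labels' protocols, a mirVana kit gave the RNA and a TargetAmp-Nano kit the label.

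Signals were background-corrected from the detection p-values (normexp, offset 16), quantile-normalised and log2-transformed with limma 3.58.1 (R 4.3.3, data.table version 1.17.8). A probe was kept where at least 3 of 6 arrays gave a detection p-value below 0.05 (16857 probes, of which 14282 had 1 gene symbol). In the platform annotation 34885 probes had 1 symbol, 18 several and 10378 none. The brightest kept probe stood for a gene. Groups were compared with lmFit and eBayes (4 residual and 2.63 prior degrees of freedom), with Benjamini-Hochberg adjustment over 9561 genes. The fit was tested on simulated data. Intervals are 95% per gene.

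The members and the gene lists were chosen with earlier results of these data known. Named were every member and, per pathway list, the up to 3 called genes with the largest difference in each direction. Creb3l2, Creb3, Nfe2l1, Fkbp2, Atf3 and Ppp1r15a fall outside this rule and were named after their values were seen. Alternatives covered background correction, normalisation, filter, probe choice, variance prior, replicate block and each array left out. The 3 arrays per group limit the precision. The plots used matplotlib 3.10.9.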

Additional observations from a re-analysis of the deposited data

How the results depend on the processing

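Xbp1 and Mzb1 kept their direction and call under all 16 alternatives. Genes called in all ranged from 3028 without both arrays numbered 3 (chosen after seeing the data) to 3802 with the robust prior and intensity trend, and from 2442 to 3551 with 1 array left out. Under median scaling 3 members were higher (in place of 7) and 1 lower (in place of 0), the member median was -0.083 (in place of 0.104), 7 pathway genes were higher (in place of 11) and 7 member probes were called (in place of 12). The all-gene median went from -0.02 to -0.19, 31.7% of calls were higher in place of 49.2%, and relative to all genes the member median was 0.11 in place of 0.13. Signs also turned there for Ern1 (-0.083), Atf4 (-0.080), Hsp90b1 (-0.13), Srp9 (-0.16), Srp14 (-0.054), Sec61g (-0.12), Sec63 (-0.0065) and Ssr4 (-0.083). The authors' processed values gave 11 members and 19 pathway genes higher, a member median of 0.149, and P4hb at 0.077, Spcs1 at 0.018 and Spcs3 at 0.018. Over all genes, 2105 were higher with those values (in place of 1683), which was 56% of calls. Relative to all genes the member median stayed at 0.13. Cyclic loess gave a median of 0.170. Members lower numbered 1 without background correction, 2 with the intensity trend and 2 without both arrays numbered 3. The mean of probes gave Ern1 -0.38, Atf4 -0.042, Pdia6 0.24 and Derl2 0.016. With 1 array left out, 4 to 7 members were higher and 0 to 1 lower, the median was 0.096 to 0.149, pathway genes higher were 7 to 11 and lower 5 to 7 (in place of 9), and member probes called were 5 to 12. Signs turned for Spcs3 (-0.22 to 0.043, positive without CCR9+ pDC replicate 1), Atf4 (-0.0090 to 0.32), Pdia3 (-0.31 to 0.048) and Derl2 (-0.20 to 0.13), these 3 without CCR9+ pDC replicate 3, and Hsp90b1 (-0.015 to 0.058, negative without precursor replicate 1). Without both arrays numbered 3, Pdia3 was at 0.090 and Derl2 at 0.11. Median scaling moved the median of all genes, and the mean of probes mixes the probes of a gene. The cause of the sign changes was not tested under any alternative.

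With the replicate number as a block, 3361 genes, 7 members higher and 0 lower, 14 pathway genes higher and 7 lower, and 11 member probes were called. The block ended the calls of Creld2 (adjusted p = 0.0640), Syvn1 (0.0589), Emc3 (0.0662) and Ostc (0.0780), and Herpud1 (0.0429), Atf3 (0.00582) and Ppp1r15a (0.00252) passed. Atf3 and Ppp1r15a were named after their shared order over the replicate numbers was seen. The block removes that order, so it does not test their group difference. Deviations of same-numbered arrays correlated at 0.35, 0.04 and 0.24. The arrays numbered 1 and 3 correlated best with their own number in the other group, and those numbered 2 did not (0.063 and 0.061 at best). The main fit did not take the numbers as pairs, and whether they mark shared isolations was not tested. A block for slides was not run, since the file headers name none. Dim probes such as those of Atf6, Edem1 and Hspa5 limit what signal over background can show.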
